A study of Mus musculus with 8 samples.

Results

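In liver RNA-seq read counts of mice, 10 imprinted genes were followed: the noncoding RNAs Meg3, Rian and Mirg, their neighbour Dlk1, and H19, Igf2, Peg3, Grb10, Cdkn1c and Plagl1. The members were chosen by symbol, and the set was chosen for Meg3 and Rian. That choice used their values on high fat diet (HFD) against chow in wild-type livers. The members are therefore described in that comparison without a test. All 10 symbols were found among the 22946 rows of the deposited count table, and 6 of the 10 rows passed the filter on low counts, against 12593 of all rows. Meg3, Mirg and H19 stand in rows merged with microRNA genes, and their counts cannot be assigned to single genes.

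The 8 libraries came from livers of C57 Black mice that were put on chow or HFD at the age of 8 weeks for 8 weeks. The 4 groups, with 2 libraries each, were wild-type mice on chow (libraries 1 and 2), wild-type mice on HFD (5 and 6), mice labelled MLL4 het on chow (3 and 4) and mice labelled MLL4 het on HFD (7 and 8). MLL4 is a histone methyltransferase encoded by Kmt2d, and the labels give neither the allele nor where it is changed in the body. The labels do not tie libraries to separate animals. The p-values therefore reflect only how these libraries vary, and that variation may be technical.

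Total counts ranged from 14142884 to 18928676 per library. Levels are given as CPM, counts per 1e+06 counts after scaling of the library sizes, and 3 counts equal 0.161 to 0.213 CPM. Kmt2d RNA, listed under its older symbol Mll2, was at 65.4 ± 5.93, 63.96 ± 0.973, 65.97 ± 8.55 and 69.04 ± 8.92 CPM (SD, n = 2) in the 4 groups in the order given above, so its RNA does not separate the genotypes and these libraries are called het-labelled. All 8 hepatocyte markers examined were detected, with a summed level between 70706 and 88541 CPM. In a principal component analysis het-labelled chow library 3 and het-labelled HFD library 8 lay at opposite ends of component 3, which held 14.1% of the variance.

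Imprinted genes are expressed mainly from the allele of one parent. Meg3, Rian and Mirg are long noncoding RNAs expressed from the maternal chromosome, while the protein genes Dlk1, Rtl1 and Dio3 of the same domain are expressed from the paternal one. The noncoding RNAs are read from the same strand, host many small RNAs, and depend on a shared control region upstream of Meg3. Many imprinted genes are abundant in fetal liver and decline after birth.

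In the RefSeq annotation (GRCm38.p6, another build than the mm9 named for these counts, used for gene order and sequences alone), the genes of the domain follow each other on chromosome 12 as Begain, Dlk1, Meg3, Rtl1, Rian, Mirg, Dio3os and Dio3. Between Dlk1 and Dio3 this annotation places 61 microRNA genes. The promoter windows of the 3 noncoding RNAs whose counts lay on the same side of the diets are shown as the sequences at the starts of the genes described next. Each runs from 250 bases before to 50 bases from the annotated start. Capitals mark matches to TGACGTCA (the cAMP response element), TGCCGC (a hexamer bound by ZFP57), TATAAA (the TATA box) or CACGTG (the E-box), on either strand.
Meg3, chr12:109540746-109541045, + strand: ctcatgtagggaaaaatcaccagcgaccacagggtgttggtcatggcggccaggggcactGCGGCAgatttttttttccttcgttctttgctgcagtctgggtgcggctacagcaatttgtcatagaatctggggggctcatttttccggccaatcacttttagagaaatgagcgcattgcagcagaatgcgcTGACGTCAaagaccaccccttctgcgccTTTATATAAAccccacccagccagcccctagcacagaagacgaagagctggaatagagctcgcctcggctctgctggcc
Rian, chr12:109603695-109603994, + strand: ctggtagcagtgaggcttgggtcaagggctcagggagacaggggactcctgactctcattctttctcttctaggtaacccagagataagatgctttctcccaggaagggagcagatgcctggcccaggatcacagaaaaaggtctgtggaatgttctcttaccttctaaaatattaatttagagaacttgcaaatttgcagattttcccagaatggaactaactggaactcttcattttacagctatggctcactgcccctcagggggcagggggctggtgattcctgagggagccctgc
Mirg, chr12:109734731-109735030, + strand: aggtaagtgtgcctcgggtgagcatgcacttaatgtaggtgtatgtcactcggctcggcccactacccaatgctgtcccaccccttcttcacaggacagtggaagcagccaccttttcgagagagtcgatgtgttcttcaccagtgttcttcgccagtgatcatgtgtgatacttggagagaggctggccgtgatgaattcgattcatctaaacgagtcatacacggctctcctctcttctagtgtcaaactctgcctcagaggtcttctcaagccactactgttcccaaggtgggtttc

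The Meg3 window held TGACGTCA at bases 194 to 201, TATAAA on the plus strand at bases 226 to 231 and on the minus strand at bases 222 to 227 (the 2 matches overlap), and TGCCGC on the minus strand at bases 61 to 66. The windows of Rian and Mirg held none of the 4 motifs. Of the 32851 RefSeq promoter windows of this length, 1.79% held TGACGTCA, 13.6% TATAAA, 11.6% TGCCGC and 7.15% CACGTG. The windows held 13 CpG dinucleotides in Meg3, 0 in Rian and 10 in Mirg, against a median of 7 over all windows. A second annotated start of Meg3 held none of the 4 motifs. Windows were found for 8 of the 10 members, and TGACGTCA was also present in that of Peg3.

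The microRNAs that share rows with Meg3, Mirg and H19 are shown because they say what else those rows may count. The seed, bases 2 to 8, is in capitals, and sequences are from RefSeq (GRCm38.p6).
mmu-miR-770-5p: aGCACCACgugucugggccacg
mmu-miR-1906: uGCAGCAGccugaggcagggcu
mmu-miR-369-3p: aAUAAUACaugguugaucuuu
mmu-miR-410-3p: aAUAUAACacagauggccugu
mmu-miR-412-3p: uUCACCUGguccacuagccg
mmu-miR-675-5p: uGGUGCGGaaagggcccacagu

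The row of Meg3 joins Mir770, Mir1906-1 and Mir1906-2. The last of these is annotated on chromosome X, so this row also covers a locus outside the domain. The row of Mirg joins Mir369, Mir410 and Mir412, and that of H19 joins Mir675. No seed was shared between different microRNAs of these rows. The 48 other rows that hold only microRNA genes of the domain summed to 3 counts over all 8 libraries, so the libraries say nothing of these small RNAs.

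The first comparison asked how the 3 noncoding RNAs differed between the diets in het-labelled livers, whose libraries took no part in the choice of the set. Meg3 and Rian were both lower on HFD there, and each passed the test. The estimate of the spread in this test also draws on the wild-type libraries. The test is therefore not fully independent of the choice. The wild-type values that led to the choice follow after those of het-labelled livers.

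Meg3, the noncoding RNA next to the control region of the domain, had 12.3 and 30.1 CPM (173 and 443 counts) in libraries 3 and 4, from het-labelled livers on chow. On HFD it had 3.32 and 1.42 CPM (62 and 20 counts) in libraries 7 and 8. The chow libraries differed widely from each other, and both still lay above the HFD libraries. Meg3 fell by 3.10 ± 0.47 on the log2 scale (SE, 95% interval -4.16 to -2.04), an 8.60-fold decrease (edgeR quasi-likelihood test, adjusted p = 0.0152).

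Rian, which hosts a large array of small nucleolar RNAs, had 5.95 and 10.3 CPM (84 and 152 counts) in het-labelled livers on chow. On HFD it had 1.39 and 0.640 CPM (26 and 9 counts). The same order of libraries was seen as for Meg3, with library 4 highest and library 8 lowest of these 4. Rian fell by 2.94 ± 0.41 on the log2 scale (SE, 95% interval -3.87 to -2.01), a 7.67-fold decrease (edgeR quasi-likelihood test, adjusted p = 0.0116).

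These were 2 of the 6 tested members, both lower, while 1.48% of all tested rows were called lower on HFD in het-labelled livers and 1.53% higher. The call of Rian held in every alternative run. The call of Meg3 ended when only the 4 het-labelled libraries were fitted (log2 change -3.11, edgeR adjusted p = 0.0604) and held in the others, with edgeR adjusted p up to 0.0419 when single libraries were left out. Without library 4 the log2 difference of Meg3 was -2.31, and without library 7 it was -3.89. The groups of 3 of the 10 members did not overlap and were lower on HFD in het-labelled livers (Meg3, Rian and Mirg), as were 22.4% of all tested rows, and those of 1 member (H19) were higher, as were 22.3%. At 2 libraries a group, such separation alone is common.

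Mirg, the most distal of the 3 and the host of a microRNA array, was close to the detection limit and did not pass the filter. In het-labelled livers the chow libraries 3 and 4 gave 3 and 7 counts and both HFD libraries gave 0. In wild-type livers the chow libraries gave 5 and 3 counts, against 0 and 1 for HFD. Over all libraries, 18 of its 19 counts came from chow. Its groups did not overlap between the diets in either genotype, at counts too low for a fitted change.

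**Figure D1:**
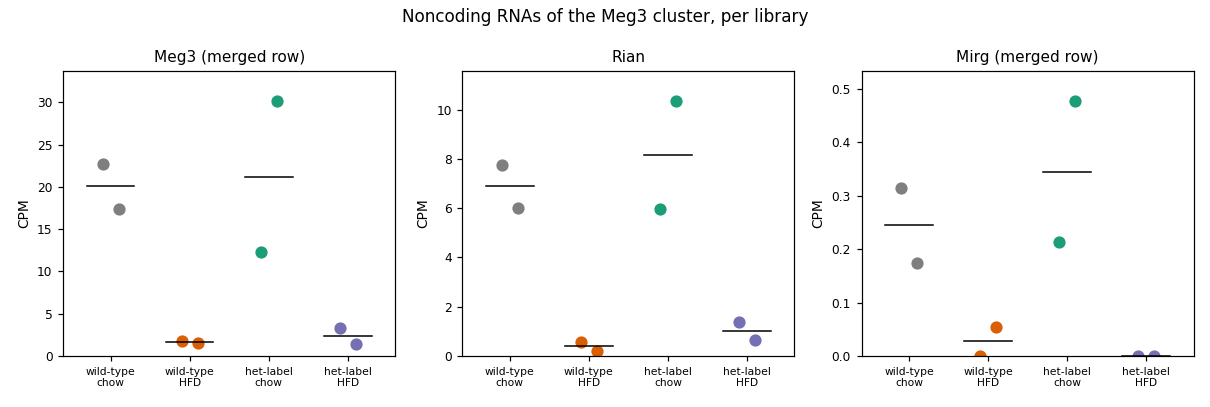
Level in CPM (vertical axis, linear, from 0) of the merged row of Meg3, of Rian and of the merged row of Mirg in the 4 groups. Points are single libraries and lines are means of 2; all chow points lie above all HFD points in each panel, and het-labelled chow library 4 is the highest in each.

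In wild-type livers, the values that led to the choice of the set were as follows. Meg3 had 22.7 and 17.4 CPM (361 and 300 counts) on chow and 1.73 and 1.53 CPM (30 and 28 counts) on HFD, a log2 difference of -3.61 ± 0.49 (SE). Rian had 7.75 and 6.03 CPM (123 and 104 counts) on chow and 0.577 and 0.219 CPM (10 and 4 counts) on HFD, a log2 difference of -4.10 ± 0.48 (SE). As a description of this selected contrast, 2.22% of all tested rows were called lower on HFD in wild-type livers and 2.37% higher, and the groups of 25.2% did not overlap and were lower. For Meg3, Rian and Mirg alike, all 4 chow libraries lay above all 4 HFD libraries, a pattern shown by 5.88% of all tested rows.

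Set side by side, the decrease on HFD was 0.51 ± 0.72 smaller in het-labelled than in wild-type livers for Meg3 and 1.16 ± 0.72 smaller for Rian, on the log2 scale (SE). The 95% intervals, -1.11 to 2.13 for Meg3 and -0.48 to 2.80 for Rian, include 0. The sign for Meg3 turned without library 7, where the value was -0.28. These differences contain the wild-type values that chose the set and were not tested. Group means of Meg3 ran from het-labelled chow (21.2 ± 12.6 CPM, SD, n = 2) and wild-type chow (20.1 ± 3.78) down to het-labelled HFD (2.37 ± 1.35) and wild-type HFD (1.63 ± 0.142). Within each diet the genotypes overlapped. Rian followed the same order, at 8.14 ± 3.10, 6.89 ± 1.22, 1.02 ± 0.533 and 0.398 ± 0.253 CPM. On HFD both het-labelled libraries lay above both wild-type libraries for Rian, with only 4 to 26 counts in each.

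Meg3 and Rian were also compared among libraries of the same group. In 4 of 4 groups the library with more Meg3 was also the one with more Rian. These are only 4 pairs, and the Meg3 counts of wild-type HFD were close, at 30 and 28. The wild-type pairs took part in the choice of the set, and joint variation was not tested. Rian made up 25.4% and 25.7% of the summed counts of both rows in libraries 1 and 2 (wild-type, chow), and 32.7% and 25.5% in libraries 3 and 4 (het-labelled, chow). On HFD the share was 25.0% and 12.5% in wild-type libraries 5 and 6. It was 29.5% and 31.0% in het-labelled libraries 7 and 8. The exact binomial 95% intervals of the chow libraries ran from 21.5% at the lowest to 38.8% at the highest, and each HFD interval overlapped them, down to 3.51% to 29.0% in library 6. Reads without molecular identifiers are not independent molecules, so these intervals cover counting error only. A shift of the Rian share with diet was not detectable at this depth.

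**Figure D2:**
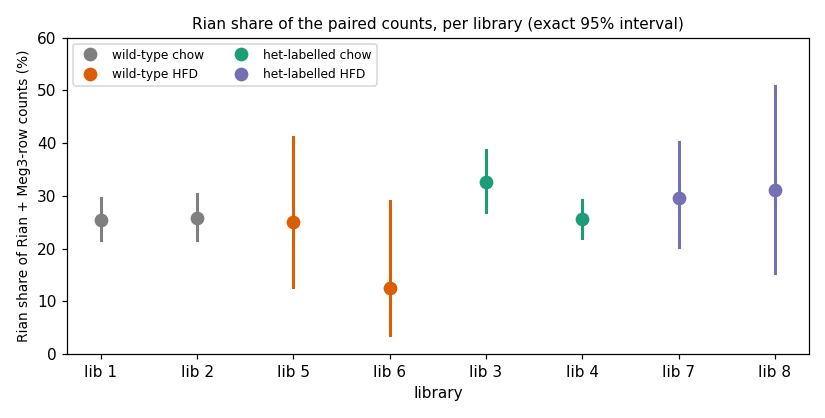
Rian counts as a percentage of the summed counts of Rian and the merged Meg3 row (vertical axis) in each of the 8 libraries. Points are the shares and bars are exact binomial 95% intervals; the bars are wider on HFD, where counts were low, and all points but that of library 6 (12.5%) lie between 25.0% and 32.7%.

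Markers of the other cell types of the liver were measured beside these decreases. Sums of the lists of sinusoidal endothelial markers (9 of 9 detected) ran from 175 to 249 CPM on chow and from 164 to 214 CPM on HFD in het-labelled livers. Stellate cell markers (8 of 8 detected) summed to between 258 and 312 CPM on chow and to between 211 and 250 CPM on HFD there, without overlap. In wild-type livers the endothelial sums were 165 to 193 CPM on chow and 185 to 191 CPM on HFD. The stellate sums of wild-type livers were 251 to 284 CPM on chow and 258 to 264 CPM on HFD. Of the 9 endothelial and 8 stellate markers, 0 were called in het-labelled livers by edgeR. Cholangiocyte markers summed to 33.8 to 36.0 CPM on chow and 29.2 to 35.2 CPM on HFD there. Sums of T, B and NK cell markers were 2.52 to 3.26 CPM and 2.27 to 2.36 CPM, without overlap. Those of neutrophil markers were 1.06 to 2.52 CPM and 0.782 to 1.23 CPM. Of the 4, 2 and 1 tested rows of these lists, edgeR called 0 there. Kupffer cell markers (7 of 7 rows detected) summed to 308 to 385 CPM on chow and 134 to 211 CPM on HFD there. Of these 7 rows, edgeR called 4 lower and 0 higher. Of all tested rows, 1.48% were called lower and 1.53% higher in these livers. In wild-type livers the Kupffer cell sums were 126 to 135 CPM on chow and 124 to 132 CPM on HFD, beside the log2 differences of -3.61 for Meg3 and -4.10 for Rian. Erythroid markers summed to between 240 and 253 CPM on chow and to between 350 and 371 CPM on HFD in het-labelled livers, where 0 of 3 tested were called by edgeR. In wild-type livers their sums were 258 to 320 CPM on chow and 654 to 828 CPM on HFD. Hepatocyte markers had lower sums on HFD without overlap, at 81338 to 85748 CPM on chow and 70706 to 73424 CPM on HFD in het-labelled livers, where 0 of 8 were called, and 84258 to 88541 CPM and 73164 to 74243 CPM in wild-type livers. The part of these cell types in the decrease of Meg3 and Rian was not tested beyond these values, and in bulk tissue fewer cells of a type and less RNA per cell cannot be told apart. Of tissues next to the liver, the skeletal muscle markers Acta1 and Ckm and the pancreatic markers Prss2, Cpa1, Cel and Pnlip had 0 counts in all libraries. The other 3 of 5 muscle markers summed to at most 0.231 CPM, and the 4 adipocyte markers to at most 0.426 CPM. The remaining pancreatic marker, Cela2a, had 0.521 to 0.630 CPM on chow and 0.164 to 0.231 CPM on HFD in wild-type livers, and 0.142 to 0.476 CPM and 0.0536 to 0.142 CPM in het-labelled livers.

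Other genes of the domain had few counts. Dlk1, the paternally expressed transmembrane protein at its other end, had 2 counts in wild-type chow library 1, 1 count in het-labelled chow library 4 and 0 counts in the other 6 libraries. At 3 counts or fewer per library no difference could be read for Dlk1. Of 50 rows fixed for the other genes of the domain, 6 had a count and only the merged row of Dio3os and Mir1247 was tested. Dio3os, a noncoding RNA from the region of Dio3, had 0.142 and 0.204 CPM (2 and 3 counts) in het-labelled livers on chow and 1.18 and 1.14 CPM (22 and 16 counts) on HFD. Its log2 difference was 2.69 ± 0.63 (edgeR adjusted p = 0.0608, not called), and its direction was opposite to that of Meg3. The row of Dio3os passed the filter through HFD libraries alone, so this difference is given as a description. In wild-type livers Dio3os overlapped between the diets, at 0.504 and 0.579 CPM on chow and 0.173 and 0.710 CPM on HFD.

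H19 and Igf2 form another imprinted pair, on chromosome 7, where H19 is a maternally expressed noncoding RNA and Igf2 a paternally expressed growth factor. Neither passed the filter. In het-labelled livers the merged row of H19 had 0 counts in both chow libraries, against 6 and 5 counts for HFD. In wild-type livers the chow libraries gave 1 and 2 counts and the HFD libraries 3 and 5. The HFD libraries thus lay above the chow libraries in both genotypes, with 19 counts on HFD against 3 on chow, which is opposite to Meg3, Rian and Mirg. In wild-type livers 30.6% of all tested rows did not overlap and were higher on HFD, and 13.1% had all 4 chow libraries apart from all 4 HFD libraries in either direction. No fold is given, since chow levels were at or under 3 counts. Igf2 gave 5 counts in each wild-type chow library and 3 and 0 in the wild-type HFD libraries. The het-labelled libraries gave 7 and 9 counts (chow) and 10 and 2 (HFD). The het-labelled diets overlapped for Igf2, and its counts reached no more than 0.612 CPM.

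The other 4 tested members are protein genes: Peg3, a paternally expressed zinc finger protein, Grb10, an adaptor that restrains insulin and IGF receptor signalling, Cdkn1c, an inhibitor of cyclin-dependent kinases, and Plagl1, a zinc finger transcription factor. None of them passed the diet test in het-labelled livers. Peg3 had 8.85 and 10.7 CPM on chow and 7.67 and 12.6 CPM on HFD (log2 difference 0.04 ± 0.25, edgeR adjusted p = 0.964). Grb10 had 6.87 and 4.15 CPM on chow and 2.68 and 4.90 CPM on HFD (log2 difference -0.56 ± 0.32, edgeR adjusted p = 0.398). The difference of Grb10 was -0.16 without library 3 or 7, -0.89 without library 4 and -1.03 without library 8. These groups overlapped, as did those of the remaining pair.

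Cdkn1c had 0.567 and 0.816 CPM in het-labelled livers on chow and 1.39 and 0.711 CPM on HFD (log2 difference 0.64 ± 0.46, edgeR adjusted p = 0.524). That difference was 0.04 without library 7, 0.41 without library 3 and 1.002 without library 8. Plagl1 had 0.708 and 1.496 CPM on chow and 0.912 and 0.782 CPM on HFD (log2 difference -0.37 ± 0.44, edgeR adjusted p = 0.720). At 8 to 26 counts per library, the 95% intervals reach from -0.40 to 1.68 for Cdkn1c and from -1.37 to 0.63 for Plagl1, so the precision for both was low. For Peg3 the interval was -0.54 to 0.61, which does not reach the size of the decrease of Meg3 or Rian.

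**Figure D3:**
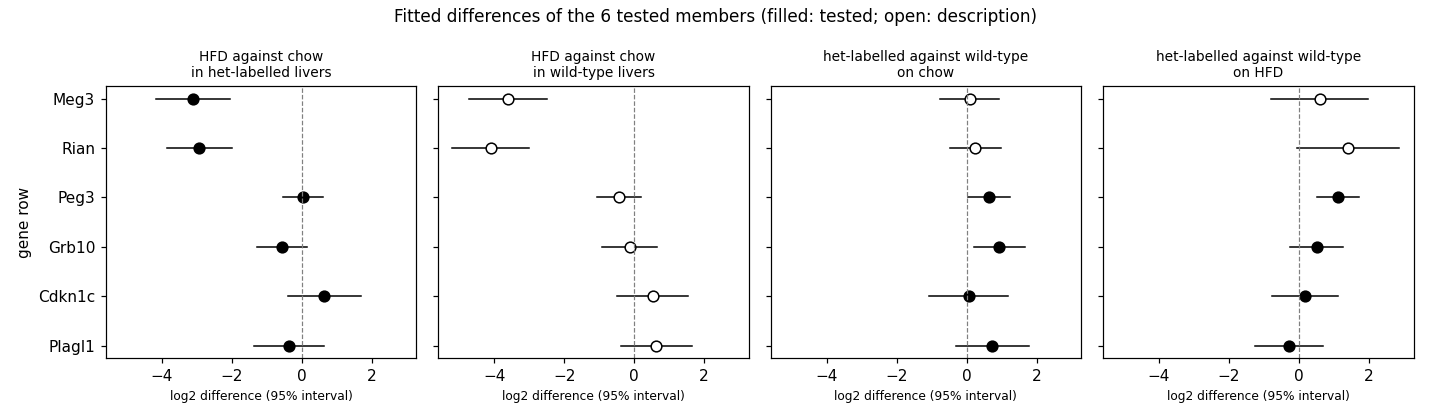
Fitted log2 differences (horizontal axis) of the 6 tested members in 4 comparisons, with 95% intervals as bars. Filled points were tested and open points are descriptions that share libraries with the choice of the set; in the het-labelled diet comparison Meg3 (-3.10) and Rian (-2.94) lie apart from the other 4 members, which lie between -0.56 and 0.64.

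Between the genotypes, the series design asks which genes depend on MLL4, and the 4 members outside the Meg3 domain could be tested. Peg3 and Grb10 had higher values in het-labelled livers, and neither passed. Peg3 had 7.43 and 5.16 CPM in wild-type livers on chow and 4.33 and 4.92 CPM on HFD. Its 4 het-labelled values, from 7.67 to 12.6 CPM, lay above all 4 wild-type values, a pattern shown by 4.11% of all tested rows. The log2 difference of Peg3 was 0.64 ± 0.26 on chow (edgeR adjusted p = 0.297). In HFD livers it was 1.11 ± 0.27 (95% interval 0.51 to 1.72), with an edgeR adjusted p = 0.115. This HFD difference passed with DESeq2 (adjusted p = 0.0166), with edgeR when rows of low counts were kept (adjusted p = 0.0299) and with edgeR without library 7 (adjusted p = 0.0324). Without library 8 it was 0.73 (edgeR adjusted p = 0.467), and the adjusted p reached 0.488 without library 5. On chow, the difference of Peg3 was 0.39 without library 2.

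Grb10 had 2.77 and 2.96 CPM in wild-type livers on chow and 2.65 and 2.57 CPM on HFD. Its log2 difference between the genotypes was 0.94 ± 0.32 on chow (edgeR adjusted p = 0.227) and 0.51 ± 0.34 on HFD (edgeR adjusted p = 0.552). The groups did not overlap on either diet, although library 7, at 2.68 CPM, lay close to the wild-type values. Single libraries moved these values, to 0.53 on chow without library 3, and to 0.04 without library 8 and 0.91 without library 7 on HFD. For Cdkn1c the differences were 0.06 ± 0.50 on chow and 0.18 ± 0.41 on HFD, and for Plagl1 they were 0.73 ± 0.46 on chow and -0.28 ± 0.43 on HFD (edgeR adjusted p from 0.493 to 0.969). With single libraries left out, the chow difference of Plagl1 was 0.07 (library 4), 0.32 (library 2), 1.16 (library 3) or 1.23 (library 1), and its HFD difference ranged from -0.40 to -0.19. In all, edgeR called 0 of these 4 members on chow, where 0.516% of all tested rows were called, and 0 on HFD, where 0.445% were. At an unadjusted p under 0.05 these numbers were 2 and 1, and DESeq2 called 0 and 1. Groups that did not overlap and were higher in het-labelled livers were found for Peg3 and Grb10 on both diets, as for 24.0% of all tested rows on chow and 22.8% on HFD. Plagl1 did not overlap and was lower on HFD, as were 24.3% of all tested rows. H19 was lower without overlap on chow, at 0 to 2 counts, as were 21.9% of all tested rows, and higher without overlap on HFD, at 3 to 6 counts. Igf2 was higher without overlap on chow, at 5 to 9 counts.

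**Figure D4:**
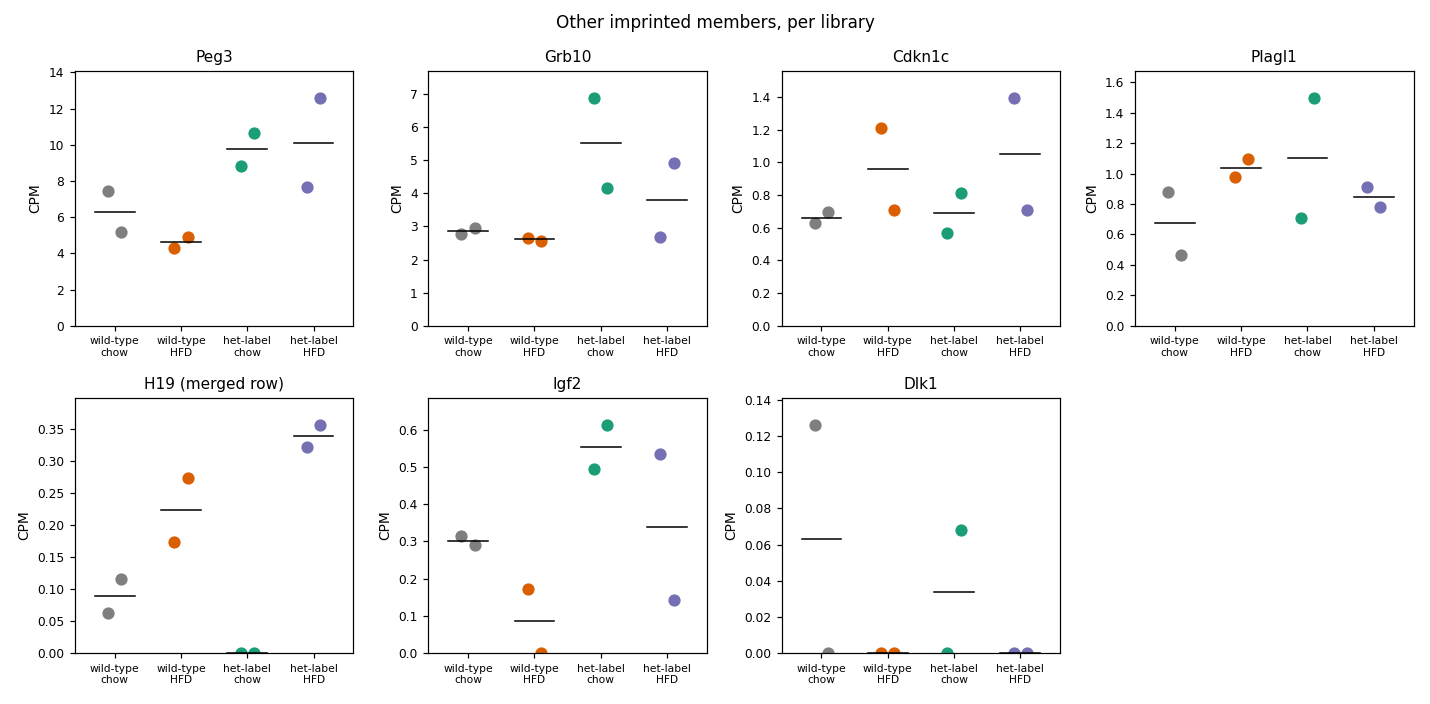
Level in CPM (vertical axes, linear, each from 0) of the 7 members other than Meg3, Rian and Mirg in the 4 groups. Points are single libraries and lines are means of 2; the 4 het-labelled points of Peg3 lie above its 4 wild-type points, and the H19 points on HFD lie above those on chow in each genotype.

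In wild-type livers, the diet values of these 4 members are given as descriptions, since this contrast chose the set. The log2 differences of HFD from chow were -0.44 ± 0.28 for Peg3, -0.13 ± 0.34 for Grb10, 0.52 ± 0.45 for Cdkn1c and 0.63 ± 0.45 for Plagl1 (SE). All of these intervals include 0. Plagl1, with 0.882 and 0.464 CPM on chow and 0.981 and 1.09 CPM on HFD, had fitted differences of opposite sign in the genotypes, and this was not tested.

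Other imprinted genes were counted beside Meg3 and Rian. Of 95 rows in the table for other imprinted genes, 46 had a count and 28 were tested. In het-labelled livers edgeR called 0 of the 28 for diet, and their median log2 difference was 0.11 against -0.01 over all tested rows. They ranged from -0.91 for Peg10 to 2.69 for Dio3os, whose row passed the filter through HFD libraries alone. None of the 28 had a decrease as large as Meg3 or Rian. At an unadjusted p under 0.05 there were 2, and DESeq2 called 0. Of all tested rows, edgeR called 1.53% higher and 1.48% lower in this comparison. For genotype, it called 0.516% on chow and 0.445% on HFD. Between the genotypes edgeR called 0 of the 28 on chow and 0 on HFD (6 and 5 at an unadjusted p under 0.05, 0 and 0 by DESeq2), with medians of 0.01 and 0.05 against 0.01 and 0.00 over all tested rows.

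Among the 13 tested rows listed as paternally expressed, Slc38a4, an amino acid transporter, was the most abundant, with 849 to 1271 CPM over the 8 libraries. Among the 14 listed as maternally expressed it was Cd81, a tetraspanin, with 165 to 251 CPM. The counts do not separate the parental alleles, so whether these genes are imprinted in these livers was not examined. In wild-type livers edgeR called 1 of the 28 rows, higher on HFD, where 2.37% of all tested rows were called higher and 2.22% lower. This contrast chose the set through Meg3 and Rian, so its calls are given as a description. DESeq2 called 1 other row, Ppp1r9a, which had 17.0 and 18.8 CPM on chow and 9.11 and 10.8 CPM on HFD (edgeR log2 difference -0.84, adjusted p = 0.0683). The edgeR call was the merged row of Snrpn and Snurf, with 8.75 and 10.1 CPM on chow and 14.4 and 14.7 CPM on HFD. Its log2 difference was 0.63 ± 0.14 (edgeR adjusted p = 0.0367). Its call ended without any 1 of libraries 1, 2, 5 and 6 (edgeR adjusted p from 0.113 to 0.312) and with DESeq2 (adjusted p = 0.0883). In het-labelled livers that row had 12.7 and 10.9 CPM on chow and 11.7 and 13.5 CPM on HFD, without passing the test (edgeR adjusted p = 0.794).

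**Figure D5:**
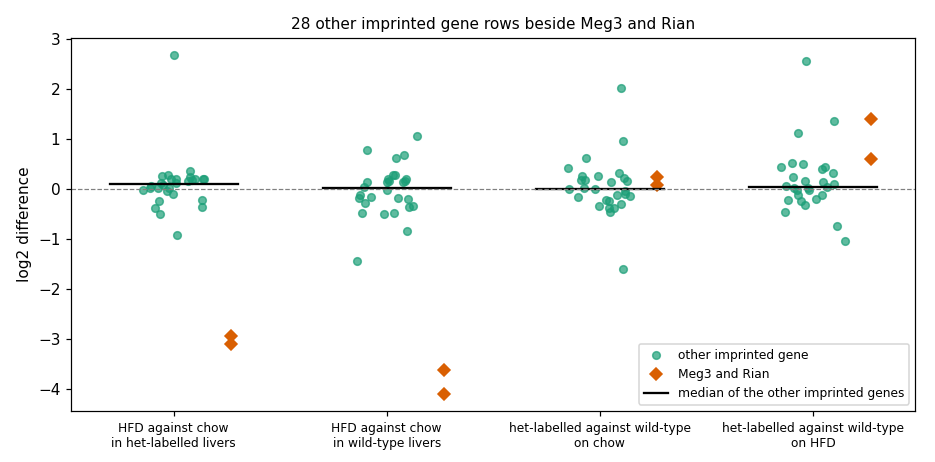
Fitted log2 differences (vertical axis) of 28 rows of other imprinted genes (circles) in 4 comparisons, with their medians as lines, beside those of Meg3 and Rian (diamonds). In both diet comparisons the diamonds, between -4.10 and -2.94, lie below every circle. The wild-type diet comparison chose the set for Meg3 and Rian, so their place there is a description. In both genotype comparisons the diamonds lie within the range of the circles.

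Genes that keep imprints and methylate DNA were examined as well. Of 15 such genes, 10 were tested, and edgeR called 0 in each of the comparisons (1 at an unadjusted p under 0.05 in each, 0 by DESeq2 in each). Of all tested rows, edgeR called 0.516% between the genotypes on chow and 0.445% on HFD. For diet it called 1.53% higher and 1.48% lower in het-labelled livers, and 2.37% and 2.22% in wild-type livers. Zfp445, a zinc finger protein that binds imprinting control regions, was the most abundant, with 93.8 to 138 CPM. Dnmt3b, a de novo DNA methyltransferase, was singled out after its values were seen. It had 5.95 and 3.81 CPM in het-labelled livers on chow and 2.14 and 2.56 CPM on HFD (log2 difference -1.06 ± 0.27, edgeR adjusted p = 0.0751). Without single libraries this difference ranged from -1.35 to -0.70. In wild-type livers Dnmt3b had 5.04 and 4.40 CPM on chow and 2.48 and 3.17 CPM on HFD, without overlap or a call (edgeR adjusted p = 0.155). That contrast chose the set, so these values are a description.

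Of 9 fetal liver genes, 6 were tested. In het-labelled livers edgeR called 0 for diet (3 at an unadjusted p under 0.05, 1 by DESeq2, Mki67). Mki67 was lower on HFD there (log2 difference -1.58 ± 0.45, edgeR adjusted p = 0.106). Of all tested rows, 1.53% were called higher there and 1.48% lower. Igf2bp2, an RNA-binding protein that binds Igf2 mRNA, had 0.425 and 0.544 CPM there on chow and 1.72 and 1.28 CPM on HFD, without passing the test (log2 difference 1.63 ± 0.38, edgeR adjusted p = 0.0605). In wild-type livers edgeR called 2 of the 6, both higher, where 2.37% of all tested rows were called higher and 2.22% lower. That contrast chose the set, so these calls are given as a description. Igf2bp2 had 0.378 and 0.290 CPM on chow and 2.02 and 2.79 CPM on HFD (log2 difference 2.83 ± 0.37, edgeR adjusted p = 0.00548). Without single libraries this difference ranged from 2.57 to 3.02, and the call ended without library 1 or library 2. The chow libraries of both genotypes held 5 to 8 counts of Igf2bp2, so its row passed the filter through HFD libraries alone. Afp, alpha-fetoprotein, overlapped between the diets in het-labelled livers, at 1.77 and 2.31 CPM on chow and 2.09 and 1.71 CPM on HFD. Its log2 difference there was -0.09 ± 0.25 (edgeR adjusted p = 0.900). In wild-type livers Afp rose from 1.196 and 1.10 CPM to 2.60 and 2.46 CPM, a log2 fold change of 1.13 ± 0.26 (edgeR adjusted p = 0.0442). That call ended without any 1 of libraries 1, 2, 5, 6, 7 and 8 (edgeR adjusted p from 0.0512 to 0.248) and with DESeq2 (adjusted p = 0.228).

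The tested rows whose pattern over the 8 libraries was most like that of the Meg3 row were sought by Pearson's r of log2(CPM + 0.5) among 12587 rows. For Meg3 they included Cyb5r1 (r = 0.993), D18Ertd653e (0.985), Emp2 (0.9752) and Acmsd (0.971). For Rian they included Emp2 (r = 0.995), Tmem176b (0.981), Cyb5r1 (0.981) and Saa3 (0.980). Emp2 and Cyb5r1 stood in both lists. Each of these rows was lower in all 4 HFD libraries than in all 4 chow libraries, with smaller differences than Meg3: Emp2 had 8.52 to 10.9 CPM on chow and 3.01 to 4.93 CPM on HFD, and Acmsd had 23.5 to 28.4 CPM and 9.81 to 12.5 CPM. The 8 libraries fall into 2 diets, so these values of r mostly describe that split, and the best of 12587 rows would be high in any case.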

How the data were processed

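The deposited table holds read counts per gene row for 8 libraries, whole numbers that the authors did not normalize, as its values show. The tools named are TopHat2, HTSeq, CASAVA and DESeq, with build mm9, per the submitters' processing notes; versions, settings, the strand setting and the treatment of reads with several matches are not given in the sources used here. Without a stated strand setting, reads of overlapping or antisense genes, such as Rtl1 opposite the noncoding RNAs, cannot be told apart.

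Counts were analysed with edgeR 4.0.16 (limma 3.58.1, R 4.3.3). Rows were kept by filterByExpr, library sizes were scaled with TMM factors, and the quasi-likelihood fit had 1 mean for each of 4 groups and used all 8 libraries, which share an estimate of the spread. The p-values are 2-sided and adjusted by the Benjamini-Hochberg method over 12593 rows, and rows were called at an adjusted p under 0.05. SEs were calculated back from the test statistic. DESeq2 1.42.0, RLE factors, no filter, fits of only the groups compared and fits without each library were the alternatives. The procedure was tested on simulated counts.

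The members and lists were chosen with earlier results of these data known. For Meg3, Rian and Mirg no p is given in comparisons with wild-type libraries. Beside the members, the texts name called list genes, the most abundant gene of a list without calls, and the 5 rows most like Meg3 and Rian, of which 1 is not reported here. Within groups, chi-square values of 14.9 to 16.3 per degree of freedom exceeded sampling noise.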

Additional observations from a re-analysis of the deposited data

Results flagged for a closer look

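The merged row of H19 was lower in het-labelled than in wild-type libraries on chow, by a difference in mean CPM of -0.0894, and higher on HFD, by 0.115. Every library of the groups followed these opposite directions, and the difference between the diets was not tested. The counts behind it are 0 to 2 on chow and 3 to 6 on HFD.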

How the results depend on the processing

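The count of 2 members called for diet in het-labelled livers stayed at 2 under DESeq2, RLE factors, no filter and without each library (range 2 to 2), and was 1 with only the groups compared. Members called on HFD between the genotypes were 0, and 1 (Peg3) with DESeq2 and without the filter (range 0 to 1 without single libraries); on chow they were 0 throughout (range 0 to 0). Over all rows, the diet in het-labelled livers gave 380 calls, 536 with DESeq2 (within 1.5 times), 680 without the filter, 105 with only the groups compared and 144 to 293 without single libraries. The genotype gave 65 on chow, 217 with DESeq2, 314 without the filter and 1 to 269 without single libraries, and on HFD 56, 234, 258, 26 with only the groups compared, and 12 to 177. Other imprinted genes called without the filter numbered 1 for diet in het-labelled livers (Dio3os), 1 for genotype on HFD and 2 for diet in wild-type livers, where only the groups compared also gave 2; without single libraries the ranges were 0 to 1 (diet in het-labelled livers, and genotype on each diet) and 0 to 2 (diet in wild-type livers). In wild-type livers the log2 difference ranged from -3.80 to -3.43 for Meg3 and from -4.95 to -3.56 for Rian without single libraries, and the difference between the genotypes in the diet change from -0.28 to 1.33 and from 0.45 to 1.997.

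For single genes, signs turned only in values that passed nowhere. Kmt2d (Mll2) on chow was -0.0107 with DESeq2, -0.00635 with RLE factors and -0.00546 without the filter. Without single libraries, log2 ranges that crossed 0 were -0.35 to 0.37 for Peg3 and -0.80 to 0.26 for Plagl1 (diet in het-labelled livers), -0.24 to 0.29 and -0.42 to 0.60 for Cdkn1c (genotype on chow and HFD), -0.31 to 0.32 for Dnmt3b (genotype on chow), and for diet in het-labelled livers -0.0145 to 0.20 for Snrpn, -0.27 to 0.11 for Afp and -0.0707 to 0.20 for Mll2, which also gave -0.14 to 0.14 and -0.0274 to 0.24 for the genotype. The causes were not tested. Low counts limit Mirg, Dlk1, H19 and Igf2. No paired analysis was possible because the library numbers differ between the groups.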
